A study of Homo sapiens with 6 samples.

Results

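Transport between nucleus and cytoplasm was followed through 55 genes in SCC25, a cultured line derived from squamous carcinoma of the mouth, after 72 h with 2.0 mM aspirin, which blocks the cyclooxygenases. The genes were taken by symbol from the 34694 listed on the arrays: nucleoporins (NUP and a digit, TPR, RANBP2, AAAS, SEH1L), importins and transportin (KPNA, KPNB and IPO symbols, TNPO1), exportins (XPO and a digit, CSE1L), the Ran cycle (RAN, RANBP1, RANGAP1, RCC1) and the lamina (LMNA, LMNB1, LMNB2, LBR). NDC1, which the choice also named, is listed under its older symbol TMEM48 and was described with genes outside the 55. Of the 55, 51 passed the detection filter and were tested. The study hybridised biotin-labelled copies of total RNA to Illumina arrays, from untreated cells (3 arrays) and aspirin-treated cells (3 arrays), replicates 1 and 3 of each group on chip 1 and replicate 2 on chip 2. Both groups are the same line, and the labels state no vehicle for the control and no separate cultures behind the replicates, so p-values measure the spread between these arrays, which may be technical.

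Proteins and RNA cross the nuclear envelope through pores built of nucleoporins, which form outer and inner rings, a central channel lined with phenylalanine-glycine repeats, cytoplasmic filaments and a nuclear basket. Importin alpha adaptors bind a cargo's nuclear localisation signal and join importin beta, other receptors of the importin beta family bind cargo directly, and exportins carry cargo outward. Direction comes from the GTPase Ran, which RCC1 charges with GTP on chromatin and RANGAP1 discharges in the cytoplasm, while the lamins form the mesh under the inner membrane. In dividing cells the pores and lamina are dismantled at mitosis and rebuilt afterwards.

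Arrays had a median signal of 101.9 to 127.0 intensity units over a background mean of 95.4 to 115.7, and 14691 to 15170 listed genes were detected on each. All 10 squamous epithelial markers examined (such as KRT5, KRT14, TP63 and DSG3) were above background on all arrays, with a summed signal over background of 47531 to 59000 units in controls and 33899 to 41984 with aspirin. Of other cell types, 3 of 6 fibroblast markers (COL1A1, COL1A2, LUM) and 2 of 5 leukocyte markers (CD14, CD68) were above background on all arrays, whereas PDGFRB, PTPRC and CD3E were so on none, as were the endothelial CDH5 and KDR. The fibroblast sum was 358 to 1027 units in controls and 76.4 to 147 with aspirin, the leukocyte sum 1376 to 1687 and 835 to 1471, and the endothelial sum -4.55 to 56.5 and 3.48 to 25.5. Their part in the results was not tested.

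With aspirin, single genes at several stations of nuclear transport differed from control. LMNB1, LMNA, the import adaptor KPNA2, NUP62CL, RCC1 and RANBP1 fell, and the import receptors IPO4, IPO13 and TNPO1, the adaptor KPNA7 and the scaffold nucleoporin NUP160 rose, by limma's moderated test with Benjamini-Hochberg adjustment over 15128 genes and a threshold of 0.05. Of 51 members tested, 5 rose (9.80%) beside 10.5% of all genes tested, and 6 fell (11.8%) beside 9.73%, so both shares lay near the background. KPNA7 passed the filter only through the aspirin arrays. Without it 4 of 50 rose. The median difference of the members was -0.07 on the log2 scale and that of all genes tested 0.02. All differences below are aspirin minus control on the log2 scale, ± SE of the fit, with 3 arrays per group, and levels are normalized log2 signals.

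**Figure D1:**
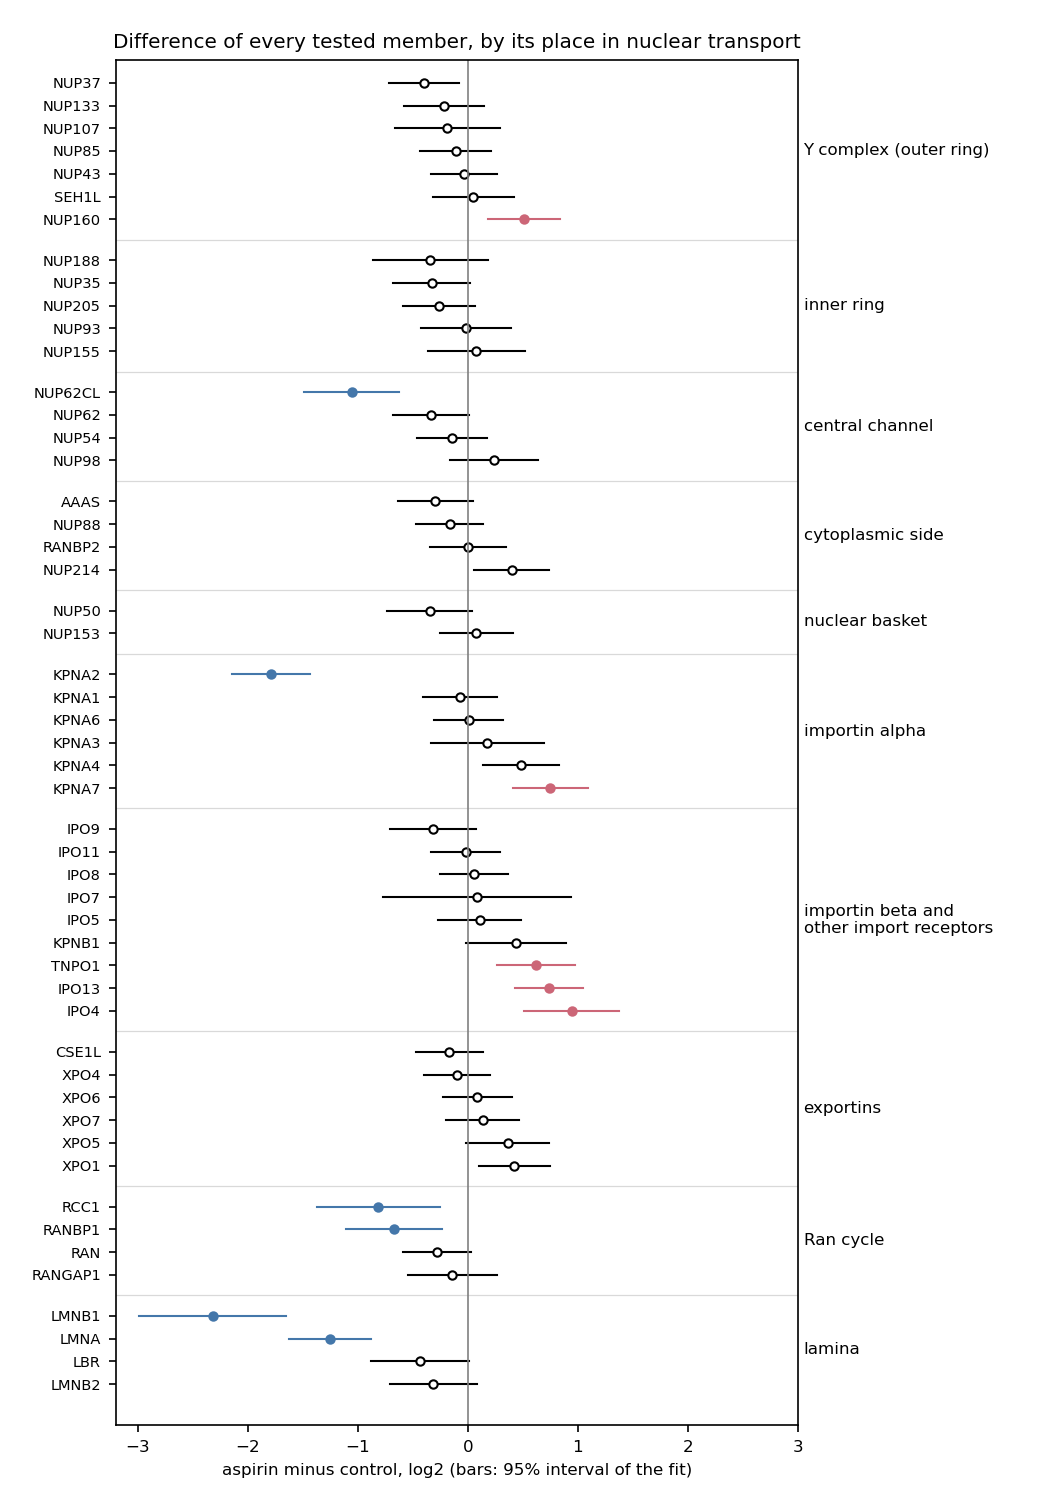
Difference (aspirin minus control, log2, horizontal axis) of each of the 51 tested members, grouped by place in nuclear transport. Points are the fitted differences and bars their 95% intervals; filled blue points are members that fell and filled red points members that rose (adjusted p under 0.05), open points did not pass. The filled points lie between -2.32 (LMNB1) and 0.94 (IPO4), and most open points lie close to 0.

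For 9 members (17.6%) every treated array lay above every control, and for 11 (21.6%) every treated array lay below, beside 20.6% and 18.2% of all genes tested. Of the distribution's middle, 40 of the 51 members differed by less than 0.50, and the quartiles were -0.31 and 0.12 among members and -0.25 and 0.29 among all genes. The lower tail of the members reached further, with a 5th percentile of -1.15 beside -0.86, while the 95th percentile was 0.68 beside 0.81. With 51 members these percentiles rest on a few outermost genes, at the lower end LMNB1, KPNA2, LMNA and NUP62CL. With the replicate number as a block, 9 members rose (17.6%, beside 17.4% of all genes) and 7 fell (13.7%, beside 15.7%). On the chip 1 arrays alone, 0 members rose, beside 2.67% of all genes, and 4 fell (KPNA2, LMNB1, LMNA and NUP62CL), beside 3.01%.

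**Figure D2:**
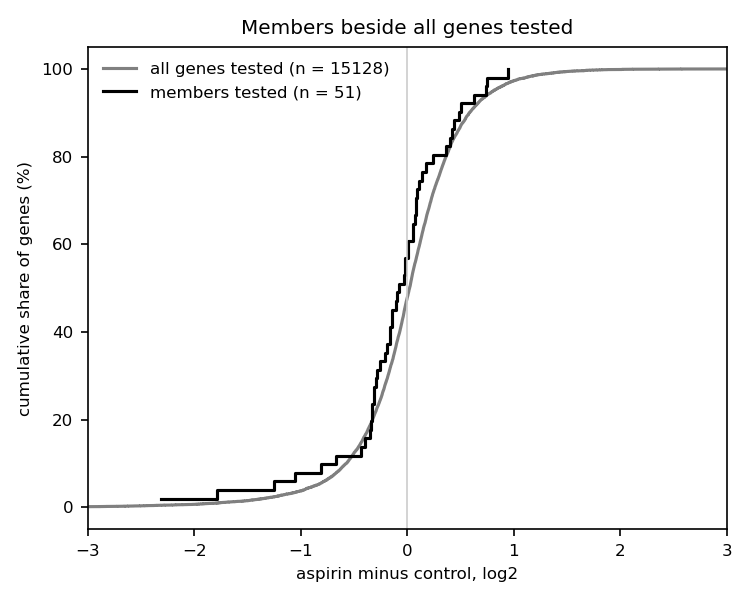
Cumulative share of genes (%, vertical axis) by difference, aspirin minus control, on the log2 scale, for the 51 members tested (black) and all 15128 genes tested (grey). The black curve lies left of the grey one around 0, where the medians are -0.07 and 0.02, and above it below -1, where LMNB1, LMNA, KPNA2 and NUP62CL lie.

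The lamina held the largest fall. LMNB1 encodes lamin B1, a permanently farnesylated lamin of the inner nuclear membrane. Its signal was 359.9, 365.1 and 376.1 intensity units on controls 1 to 3 and 108.2, 162.9 and 156.6 on aspirin arrays 1 to 3, where the background means were 95.4, 110.5 and 99.7. On the normalized scale these were levels of 8.16, 7.80 and 8.21 in controls and 5.04, 5.90 and 6.27 with aspirin. Every treated array thus lay well below every control, and the first treated array lay close to background. The difference was -2.32 ± 0.29 (adjusted p = 0.00160), a 4.98-fold fall. The LMNB1 difference was -0.51 (adjusted p = 0.0115) when the background estimate came from all listed genes. In bulk RNA a lower level in every cell and a smaller share of cells that carry a transcript cannot be told apart.

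LMNA encodes lamins A and C, the lamins typical of differentiated cells. Its levels were 10.63, 10.80 and 11.02 in controls 1 to 3 and 9.36, 9.73 and 9.62 with aspirin. The groups did not overlap, and the difference was -1.25 ± 0.16 (adjusted p = 0.00175), a 2.38-fold fall from signals of 1679.5, 2268.6 and 2091.5 intensity units to 596.8, 1070.0 and 786.1. LMNA signals were several times the background on every array, and the fall was -1.64 when all listed genes set the background (adjusted p = 0.0102). Leaving out replicate 3 of both groups ended the LMNA call (-1.17, adjusted p = 0.0529).

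The remaining lamina genes had smaller differences that did not pass. LMNB2, the second B-type lamin gene, had levels of 9.30, 9.58 and 9.73 in controls and 8.98, 9.43 and 9.27 with aspirin, which overlap (-0.31 ± 0.17, 95% interval -0.71 to 0.08, adjusted p = 0.247). LBR, the lamin B receptor, an inner membrane protein with sterol reductase activity, had 6.39, 6.44 and 6.36 in controls and 6.08, 6.27 and 5.53 with aspirin. All treated LBR arrays were lower, the third by most, and the difference was -0.44 ± 0.19 (interval -0.88 to 0.01, adjusted p = 0.152).

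Among importin alpha genes, KPNA2 fell. KPNA7 was called higher, but it passed the filter only through the treated arrays. KPNA2 encodes an importin alpha adaptor that is abundant in proliferating cells. It gave the smallest adjusted p of the 55 genes. Its signal was 506.7, 762.2 and 644.4 units on controls 1 to 3 and 190.8, 282.2 and 219.0 with aspirin, or levels of 8.77, 9.08 and 9.16 against 7.10, 7.35 and 7.20. The groups lay far apart relative to their spread, and the difference was -1.79 ± 0.16 (adjusted p = 0.000471), a 3.45-fold fall. The fall held in each pair of arrays with the same number (-1.67, -1.73 and -1.96) and was -1.03 (adjusted p = 0.0105) with the background from all listed genes. The KPNA2 value appears to combine several probes, as read from its detection scores.

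KPNA7, a divergent adaptor best known from oocytes and early embryos, was above background on 0 of 3 control arrays and on all 3 treated ones. Its levels were 4.68, 4.73 and 4.50 in controls and 5.19, 5.44 and 5.54 with aspirin, group means of 4.64 and 5.39. With the main background and offset the treated mean was 1.46-fold the lowest detected signal of the control arrays. The detection cut that selected KPNA7 favours such a ratio, so it is not a least fold change. It also holds for that setting only. With an offset of 50 the difference was 0.37. Before background correction the signals overlapped, at 112.1, 128.1 and 103.2 units in controls and 111.1, 144 and 128 with aspirin. KPNA7 passed the filter only through the treated arrays, so its adjusted p of 0.00992 by limma's test is not support for a rise. KPNA7 lost its call with the background from all listed genes (0.04, adjusted p = 0.0862) and in the deposited matrix (0.58, adjusted p = 0.20).

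KPNA4, a widely expressed adaptor, had levels of 11.04, 11.04 and 10.91 in controls and 11.72, 11.41 and 11.31 with aspirin. All treated arrays were higher, but the difference of 0.48 ± 0.15 did not pass (interval 0.14 to 0.83, adjusted p = 0.0542), while it passed with the replicate number as a block (adjusted p = 0.0212). KPNA1, KPNA3 and KPNA6 had differences of -0.07, 0.18 and 0.01 with overlapping groups. Intervals reached at most 0.69 for them, at KPNA3. KPNA5 was not above background on any array. So 1 of 6 tested importin alpha genes rose and 1 fell, beside 10.5% and 9.73% of all genes tested. The 1 that rose is KPNA7, which passed the filter only through the treated arrays.

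**Figure D3:**
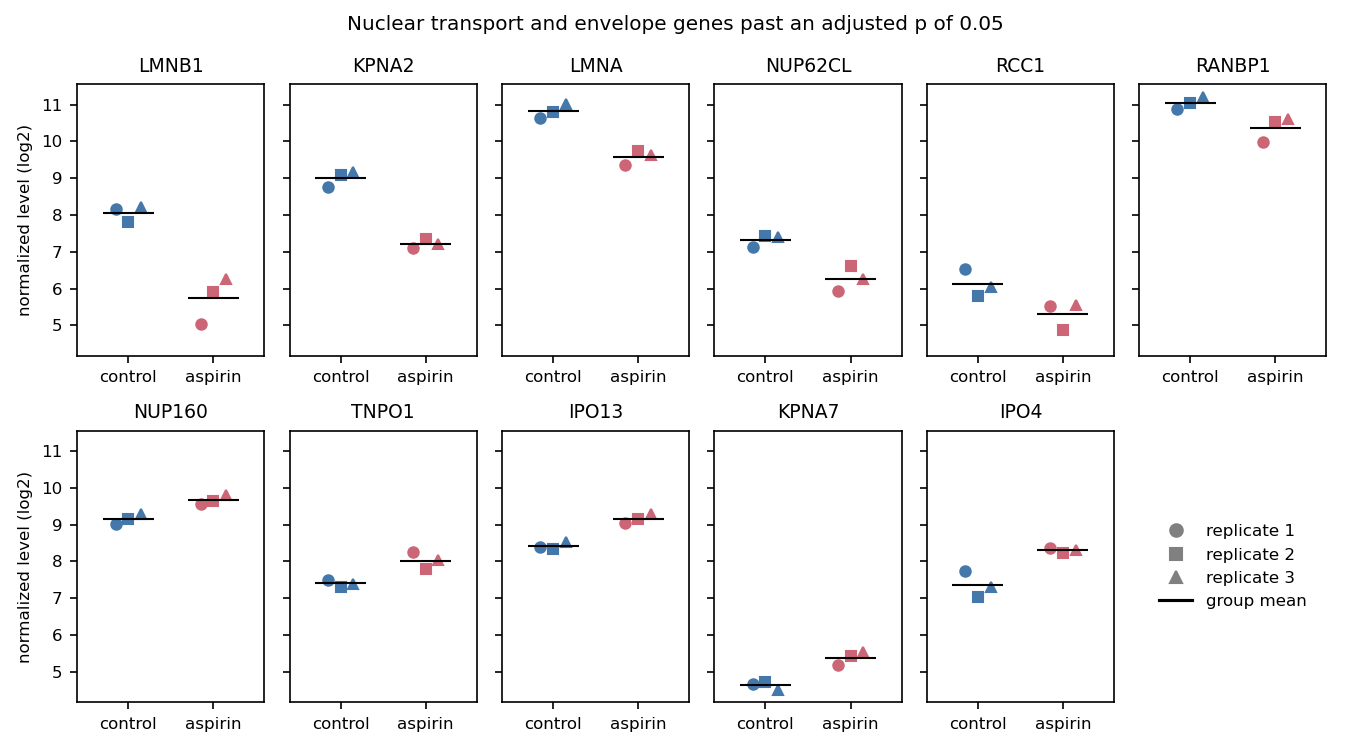
Normalized level (log2, vertical axis) of the 11 members past an adjusted p of 0.05 on each control (blue) and aspirin (red) array. Symbols mark the replicate number and lines the group means. Control and treated arrays do not overlap for any of these genes. KPNA7 was not above background on the control arrays and passed the filter only through the treated ones.

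Of the 9 receptors that carry cargo inward, 3 rose and 0 fell, beside 10.5% and 9.73% of all genes tested, and so small a class is given as a count only. IPO4 encodes importin 4, whose known cargoes include ribosomal proteins and histones. Its levels were 7.74, 7.03 and 7.30 in controls and 8.36, 8.23 and 8.31 with aspirin, with more spread among controls than among treated arrays (0.94 ± 0.19, adjusted p = 0.0106). IPO13, an importin that also exports some cargo, had 8.39, 8.35 and 8.54 in controls and 9.04, 9.17 and 9.29 with aspirin. Both groups were tight and well apart (0.74 ± 0.14, adjusted p = 0.00769, 1.67-fold). TNPO1, transportin 1, the receptor for proline-tyrosine signals of RNA-binding proteins such as hnRNP A1, had 7.50, 7.31 and 7.39 in controls and 8.25, 7.80 and 8.03 with aspirin.

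TNPO1 rose by 0.62 ± 0.15 (adjusted p = 0.0244), a value that appears to combine several probes. With the background from all listed genes its call was lost (0.24, adjusted p = 0.0617), IPO4 rose by 0.39 (adjusted p = 0.0197) and IPO13 by 0.69 (adjusted p = 0.0127). It was also lost when any 1 of 4 arrays was left out, namely controls 2 and 3 and treated arrays 1 and 3 (adjusted p up to 0.0765). On the chip 1 arrays alone these 3 genes had similar differences (0.81 for IPO4, 0.70 for IPO13 and 0.69 for TNPO1) and none passed (adjusted p from 0.0814 to 0.0862).

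KPNB1, importin beta 1, the partner of importin alpha, had levels of 11.52, 10.89 and 11.56 in controls and 11.77, 11.65 and 11.87 with aspirin. Control replicate 2 was the low array, and all treated arrays lay above all controls. The difference of 0.44 ± 0.20 did not pass (interval -0.01 to 0.89, adjusted p = 0.156), while it passed narrowly with the replicate block (adjusted p = 0.0483). IPO5, IPO7, IPO8, IPO9 and IPO11 overlapped between the groups, with differences from -0.31 (IPO9) to 0.11 (IPO5). IPO7, an importin for ribosomal proteins, had the widest spread of the 55 genes in treated arrays, at levels of 8.22, 6.92 and 6.83, of which replicate 1 stands apart, and 7.65, 6.78 and 7.29 in controls.

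Of 6 exportins tested, 0 passed by limma's test, beside 10.5% of all genes tested as higher and 9.73% as lower. With the replicate block 2 passed as higher, beside 17.4% of all genes. XPO1, also called CRM1, exports proteins with leucine-rich signals and is the target of selinexor. Its levels were 10.60, 10.48 and 10.74 in controls and 11.16, 10.90 and 11.02 with aspirin. The groups did not overlap, and the difference was 0.42 ± 0.14 (interval 0.10 to 0.75, adjusted p = 0.0679; 0.0310 with the replicate block). XPO5, the exporter of precursor miRNAs, differed by 0.36 ± 0.16 (interval -0.01 to 0.74, adjusted p = 0.161; 0.0431 with the replicate block), on arrays that overlapped between the groups.

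CSE1L, which returns importin alpha to the cytoplasm, had levels of 10.59, 10.70 and 10.85 in controls and 10.45, 10.60 and 10.59 with aspirin. The groups overlapped, and the difference was -0.17 ± 0.13 (interval -0.47 to 0.14, adjusted p = 0.436). XPO4, XPO6 and XPO7 differed by -0.10, 0.09 and 0.13. The interval of each of these 3 genes lay within 0.50 of 0.

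Of the 4 Ran cycle genes 2 fell and 0 rose, beside 9.73% and 10.5% of all genes tested, and both calls ended when any 1 of 5 of the 6 arrays was left out. RCC1, the guanine nucleotide exchange factor that charges Ran, had levels of 6.53, 5.80 and 6.05 in controls and 5.53, 4.87 and 5.55 with aspirin. All treated arrays were below all controls, though the spread within groups was wide (-0.81 ± 0.24, adjusted p = 0.0484). The call ended when any array but control 2 was left out (adjusted p up to 0.132) and with an offset of 50 (adjusted p = 0.0599). It also ended with the background from all listed genes (-0.07, adjusted p = 0.165), in the deposited matrix (adjusted p = 0.102) and with no filter (adjusted p = 0.118). The joined transcript listed as SNHG3-RCC1, which is in none of the gene lists, had a difference of 0.34 ± 0.21 that did not pass (adjusted p = 0.294). Which transcripts of the locus either value reads is not known, so no direction was read for the locus as a whole.

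RANBP1 encodes the Ran-binding protein that helps RANGAP1 to act. Its levels were 10.88, 11.04 and 11.21 in controls and 9.99, 10.54 and 10.60 with aspirin. The treated arrays were lower throughout, replicate 1 by most (-0.67 ± 0.19, adjusted p = 0.0401). The RANBP1 call ended when any array but control 1 was left out (adjusted p up to 0.131) and in the deposited matrix (adjusted p = 0.0765). It also ended with no filter (adjusted p = 0.0792) and with the background from all listed genes (-0.82, adjusted p = 0.0977). RAN itself had levels of 12.00, 11.86 and 11.77 in controls and 11.67, 11.63 and 11.49 with aspirin. The RAN groups did not overlap, but the difference of -0.28 ± 0.13 did not pass (interval -0.59 to 0.03, adjusted p = 0.180). RANGAP1 had 11.02, 11.44 and 11.51 in controls and 11.05, 11.39 and 11.11 with aspirin, which overlap (-0.14 ± 0.18, interval -0.54 to 0.26, adjusted p = 0.627).

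Of 22 nucleoporins tested, 1 rose and 1 fell, beside 10.5% and 9.73% of all genes tested. NUP160, a scaffold subunit of the outer ring's Y complex, rose. Its levels were 9.02, 9.16 and 9.30 in controls and 9.55, 9.64 and 9.81 with aspirin, a small and even shift (0.51 ± 0.14, adjusted p = 0.0388, 1.42-fold). The NUP160 call ended under median scaling (0.39, adjusted p = 0.16) and when any array but treated array 1 was left out (adjusted p up to 0.132).

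None of the other 6 Y complex genes passed. NUP37 had levels of 11.12, 11.37 and 11.14 in controls and 10.69, 10.90 and 10.83 with aspirin, lower on all treated arrays (-0.40 ± 0.14, interval -0.72 to -0.08, adjusted p = 0.0759; 0.0324 with the replicate block). NUP107 had 9.36, 9.83 and 9.64 in controls and 9.13, 9.82 and 9.32 with aspirin (-0.19 ± 0.21, interval -0.66 to 0.29, adjusted p = 0.582). In NUP107 the replicate number separated arrays more than aspirin did. NUP43, NUP85, NUP133 and SEH1L had differences from -0.21 to 0.05.

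NUP62CL, which resembles the carboxy-terminal part of the channel nucleoporin NUP62, was the nucleoporin gene that fell. Its levels were 7.13, 7.42 and 7.40 in controls and 5.93, 6.60 and 6.25 with aspirin. The groups lay clear of each other (-1.06 ± 0.19, adjusted p = 0.00702, 2.08-fold). The fall was -0.19 (adjusted p = 0.0239) with the background from all listed genes, and leaving out replicate 3 of both groups ended the call (-1.01, adjusted p = 0.112). NUP62 itself had 10.11, 10.04 and 10.10 in controls and 9.51, 9.77 and 9.96 with aspirin. All treated NUP62 arrays were lower, but by amounts that varied, and the difference did not pass (-0.34 ± 0.15, interval -0.68 to 0.01, adjusted p = 0.155).

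Of the other channel genes, NUP54 and NUP98 differed by -0.15 and 0.24 with overlapping groups. The 5 inner ring genes (NUP35, NUP93, NUP155, NUP188, NUP205) had differences from -0.34 to 0.08, none past the threshold, and only NUP35 had groups that did not overlap (-0.33 ± 0.15, adjusted p = 0.169). On the cytoplasmic side NUP214, which anchors factors of mRNA export, differed by 0.40 ± 0.15 (interval 0.06 to 0.74, adjusted p = 0.0961), and AAAS and NUP88 by -0.29 and -0.17. RANBP2 was near background, above it on all 3 controls and 2 of 3 treated arrays, and shares sequence with the RGPD genes, so its value is uncertain and no difference was read from it.

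In the nuclear basket, NUP153 had levels of 8.70, 8.46 and 8.62 in controls and 8.86, 8.54 and 8.62 with aspirin, a difference of 0.08 ± 0.15 (interval -0.25 to 0.41, adjusted p = 0.754). The direction of NUP153 turned under median scaling and without aspirin replicate 1. NUP50 differed by -0.35 ± 0.17 (adjusted p = 0.190). TPR, the long coiled-coil protein of the basket, missed the filter on detection values, which combine several probes for it, although its signal was above background on all arrays. TPR had levels of 7.14, 7.70 and 7.37 in controls and 7.26, 7.89 and 7.87 with aspirin, a difference of 0.27 with an adjusted p of 0.406 under a filter on the signal itself. NUP210 and NUP210L, of the membrane ring, were not above background on any array.

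The size of several differences moved with the background estimate. The values above rest on genes whose detection values are single steps. All listed genes together gave background means of 132.3 to 174.6 intensity units, which on each array exceeded the median signal, and under them 3 members rose (IPO4, IPO13 and NUP160), beside 7.49% of all genes, and 4 fell (KPNA2, LMNB1, LMNA and NUP62CL), beside 6.61%.

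**Figure D4:**
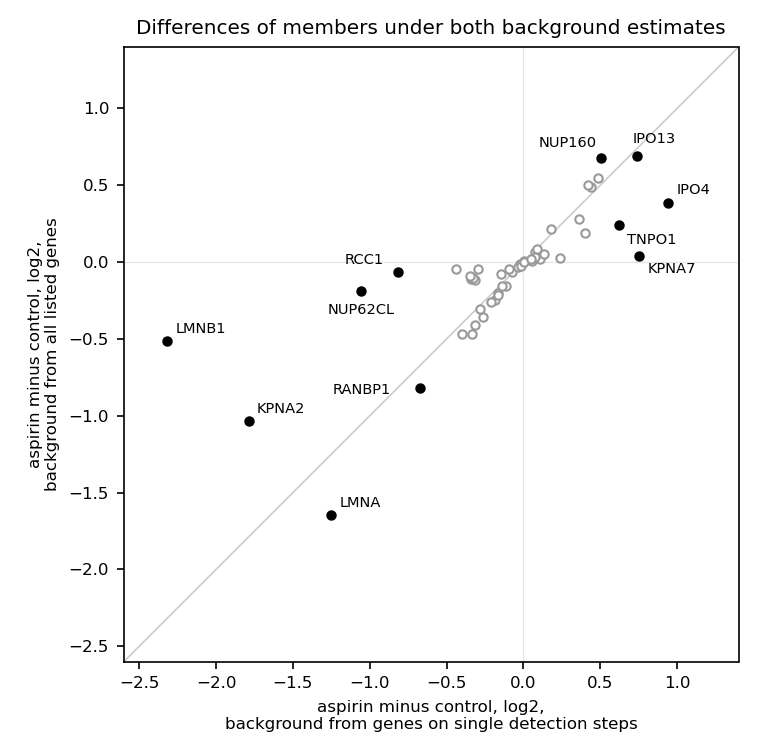
Difference of each tested member (aspirin minus control, log2) with the background estimated from genes on single detection steps (horizontal axis) and from all listed genes (vertical axis). Filled black points passed an adjusted p of 0.05 in the former, open grey points did not, and the diagonal line marks equality. LMNB1 (-2.32 and -0.51), NUP62CL and RCC1 lie nearer 0 on the vertical axis, LMNA (-1.25 and -1.64) lies farther from 0, and IPO13 lies close to the line.

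Of 47 listed genes of the pore, transport and envelope outside the 55, 43 were tested. Of these, 2 rose and 1 fell, beside 10.5% and 9.73% of all genes tested. TMPO, which encodes the lamin-binding lamina-associated polypeptide 2, fell. Its levels were 6.90, 6.71 and 6.61 in controls and 5.48, 5.64 and 5.67 with aspirin. The groups lay far apart (-1.14 ± 0.14, adjusted p = 0.00143, 2.21-fold), with -0.13 (adjusted p = 0.0132) under the background from all listed genes. The TMPO value appears to combine several probes, and its treated levels were low.

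LEMD2, an inner membrane protein that binds lamin A, rose. It had levels of 8.24, 8.62 and 8.54 in controls and 9.26, 9.07 and 8.93 with aspirin (0.62 ± 0.16, adjusted p = 0.0270). XPOT, the exportin for tRNA, had 8.13, 8.18 and 8.14 in controls and 9.11, 8.90 and 8.39 with aspirin, where replicate 3 rose least (0.65 ± 0.19, adjusted p = 0.0436). Both calls were lost under median scaling (adjusted p = 0.0914 and 0.0961) and without most single arrays (adjusted p up to 0.0722 and 0.121), and that of XPOT with the background from all listed genes (adjusted p = 0.127) and with the chip as a block (adjusted p = 0.0527). The XPOT call also ended in the deposited matrix (adjusted p = 0.0785) and with no filter (adjusted p = 0.0843). TMEM48, the older symbol of NDC1, a membrane nucleoporin, differed by 0.17 ± 0.15 (adjusted p = 0.488). With the replicate block 4 of the 43 genes rose and 5 fell, beside 17.4% and 15.7% of all genes.

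Promoter windows were read from RefSeq (GRCh38.p14), taking the 250 bases before the most upstream annotated start of each gene. They were searched on both strands for CCAAT, the box bound by NF-Y, for TTTGAA, a core of the cell cycle genes homology region, and for E2F-type letters. The E2F-type letters were TTCCCGC or the form TTCGCGC, and also TTGCCGC or the form TTGGCGC. A window was found for 45 of the 51 members tested and for 5 of the 6 that fell. The windows of KPNA2, NUP62CL and LMNB1 are shown because these are falling members with different matches, which stand in capitals. In that order they are chr17:68035485-68035734 (plus strand), chrX:107206434-107206683 (minus strand) and chr5:126776373-126776622 (plus strand), printed 5′ to 3′ along the gene's own strand.
KPNA2: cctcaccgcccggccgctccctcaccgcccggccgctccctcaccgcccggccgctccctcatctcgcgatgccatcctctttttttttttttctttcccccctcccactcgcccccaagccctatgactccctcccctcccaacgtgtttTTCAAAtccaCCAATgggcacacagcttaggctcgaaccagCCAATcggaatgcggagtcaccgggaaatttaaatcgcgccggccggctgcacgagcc
NUP62CL: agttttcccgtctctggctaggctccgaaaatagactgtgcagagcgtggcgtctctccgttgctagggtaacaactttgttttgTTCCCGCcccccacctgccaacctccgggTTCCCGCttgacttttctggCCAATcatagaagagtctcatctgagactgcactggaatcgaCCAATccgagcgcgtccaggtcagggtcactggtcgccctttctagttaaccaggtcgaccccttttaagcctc
LMNB1: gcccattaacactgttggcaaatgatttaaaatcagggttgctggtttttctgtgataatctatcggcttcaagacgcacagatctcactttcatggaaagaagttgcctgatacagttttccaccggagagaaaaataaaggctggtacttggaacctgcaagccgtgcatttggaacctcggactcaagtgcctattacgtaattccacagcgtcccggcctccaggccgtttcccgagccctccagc

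The KPNA2 window holds CCAAT at 89 and 58 bases before the start and, upstream of them, TTTGAA on the other strand at 99 bases, with no overlap. The NUP62CL window holds CCAAT at 116 and 74 bases and the E2F-type TTCCCGC at 165 and 136 bases. None of these letters is in the LMNB1 window. CCAAT stood in 3 of 5 windows of members that fell, in 42.2% of windows of tested members and in 33.0% of all 27305 windows. TTTGAA stood in 1 of 5, 20.0% and 13.6%, and the E2F-type letters in 3 of 5, 22.2% and 10.9%. Among the 4 windows found for members that rose, 1 held CCAAT, 0 TTTGAA and 1 E2F-type letters. With so few windows these are descriptions of sequence, not of binding. Whether the measured transcripts begin at the most upstream annotated start was not tested.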

How the data were processed

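Total RNA of SCC25 cells was measured on 6 Illumina arrays, 3 per group, grouped by sample title. The authors deposited, per the file headers, a signal intensity per gene and array, neither normalized nor background subtracted, for which the submitters' processing notes name GenomeStudio (version 1.9.0). The sources used here give no probe annotation or genome build. The deposited detection score is headed as a p-value but averages 0.994 over the 1000 brightest and 0.170 over the 1000 dimmest genes, so it was read as 1 minus p. The table has 1 line per symbol, a summary over probes. A signal of 0 excluded 1 gene.

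Signals were corrected by normexp, with each array's background inferred from the 27648 genes (79.7%) with scores on single steps (770 in all). Without probe annotation, scores off these steps were read as combined over several probes. Genes with scores on the steps may also have several probes. An offset of 16 was added, followed by quantile normalization and log2 (limma 3.58.1, R 4.3.3). Testing needed a score above 0.95 on 3 or more arrays and was done with lmFit and eBayes and adjusted by Benjamini-Hochberg. The fit was also run on simulated arrays with known changes. Their noise was independent, without pairing or chip effects, so that run says nothing of those features of these arrays. Above background means a score above 0.95 or a signal exceeding the background mean by 3 SD. The number of arrays limits the precision. The main fit had no block, so its SEs, intervals and p-values treat the arrays as unpaired. Replicate numbers entered only as the replicate block, the differences by pair and the left-out pairs. They were taken as pairs because same-numbered arrays deviated from their group means together (r = 0.507, 0.515 and 0.319 across genes). This pairing comes from the data, not the labels.

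Members, lists and motifs were chosen with earlier results of these data known. Per-array levels were printed for members past the threshold and for KPNB1, XPO1, CSE1L, RAN, RANGAP1, NUP107, NUP62, NUP153, TPR, LMNB2 and LBR; KPNA4, IPO7 and NUP37 were added after their values were seen. All 55 symbols matched a current RefSeq symbol. Alternatives covered blocks, chip, background, offset, normalization, the deposited matrix (background-subtracted intensity, names realigned, floor of 16), filters, variance prior and left-out arrays.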

Additional observations from a re-analysis of the deposited data

How the results depend on the processing

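Across the 24 named genes and 21 alternatives, directions turned only for NUP153, to -0.042 under median scaling and -0.016 without aspirin replicate 1 (-0.016 to 0.15 when arrays were left out). KPNA2 and LMNB1 kept their call under all 21 alternatives, TMPO kept it in those that tested it (the filter for detection on all arrays left it out), and 7 of the 11 called members kept it when any 1 array was left out. All genes called numbered 3060, and 5012 with the replicate block, 860 on chip 1 alone, 1775 to 2745 without 1 array and 420 to 3131 without a replicate pair. Members higher numbered 5, and 9 with the replicate block, 3 with the background from all listed genes, 0 on chip 1 alone, 3 to 4 without 1 array and 0 to 4 without a pair. Members lower numbered 6, and 4 to 6 without 1 array and 2 to 5 without a pair. Pathway genes outside the 55 numbered 3, and 9 with the replicate block, 1 on chip 1 alone, 1 with median scaling and 5 with a trended and robust prior, and 1 to 3 when arrays or pairs were left out. The member median of -0.07 became -0.17 with median scaling, where that of all genes was -0.03, -0.020 with no filter and -0.10 to -0.05 when arrays were left out. Leaving out replicate 2 of both groups is the same fit as chip 1 alone. The replicate block ended no call and, beside those given in the report, changed no other call among the named genes. The causes of these shifts were not tested, except that fewer arrays enter the fits that leave some out. The chip as a block ended the XPOT call and brought that of XPO1 (adjusted p = 0.0478). Low signals over background (KPNA7, RANBP2, and RCC1, LMNB1 and TMPO with aspirin) limit what can be said of fold size.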
